A study of Mus musculus with 10 samples.

Results

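Cells that divide need a shared set of proteins to condense their chromosomes, build a spindle, attach the chromosomes to it, separate them and split in 2. The 59 genes described here encode proteins of these steps in mouse: the mitotic entry switch, mitotic kinases, the spindle checkpoint, the kinetochore, spindle motors, spindle assembly factors, condensin and other chromosome proteins, the release of anaphase, and cytokinesis. They were chosen by function, with earlier results of these data known, and were taken by gene symbol. The rule itself uses no measured value, and all 59 were found among the 23337 genes of the deposited table. The study compared left atria of adult mice in bulk RNA-seq, with 4 control libraries (M1 and M2 male, F1 and F2 female) and 6 libraries labelled Tbx5 knockout (F1 to F3 female, M1 to M3 male). The control genotype is given as wild type (Tbx5 +/+) and the other as null (Tbx5-/-), both on a mixed C57B6 and 129 background, with an age of 8 to 10 weeks in the sample labels and of 6 to 8 weeks in the extraction protocol. For the null genotype, tamoxifen at 0.167 mg a day for 3 days activated a Cre recombinase under the R26 promoter, which removed exon 3 of Tbx5, and tissue was taken 1 week later. The labels call that promoter ubiquitous, so the Cre was not restricted to cardiomyocytes by design; in which cells exon 3 was lost was not measured here. The same protocol text stands on every sample, and whether the control mice carried the Cre or received tamoxifen is not given in the sources used here.

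Most cells of the adult heart are out of the cell cycle. Cardiomyocytes divide rarely after the first days of life, while fibroblasts, endothelial cells and macrophages keep the ability to divide. Genes of G2 and mitosis are switched on together late in each cycle: in resting cells the DREAM complex sits on their promoters and holds them off, and in dividing cells the MuvB core of that complex joins B-MYB and FOXM1 and activates them. The DNA element that MuvB reads is called the CHR, and it often lies a short way downstream of CCAAT boxes bound by the factor NF-Y.

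RefSeq promoter sequences (build GRCm38.p6, 250 bases before the transcription start to 50 bases after it) were matched for 48 of the 59 members. They are shown because the members are known for this shared promoter layout, and because the layout was not used to choose them. In the 5 sequences below, the 100 bases before the start are printed 5′ to 3′ in the direction of transcription, with each CHR (TTTGAA, or TTCAAA on the other strand) and each NF-Y box (CCAAT, or ATTGG) in capitals.
Cdk1 (chr10:69352913-69353012, minus strand): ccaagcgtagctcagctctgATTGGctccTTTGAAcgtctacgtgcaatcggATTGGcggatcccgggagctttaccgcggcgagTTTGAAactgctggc
Cdc20 (chr4:118437344-118437443, minus strand): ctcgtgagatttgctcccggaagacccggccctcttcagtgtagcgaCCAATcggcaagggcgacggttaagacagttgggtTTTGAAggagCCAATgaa
Kif11 (chr19:37376282-37376381, plus strand): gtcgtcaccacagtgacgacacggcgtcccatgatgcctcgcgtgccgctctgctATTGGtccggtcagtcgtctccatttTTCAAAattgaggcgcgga
Top2a (chr11:99024190-99024289, minus strand): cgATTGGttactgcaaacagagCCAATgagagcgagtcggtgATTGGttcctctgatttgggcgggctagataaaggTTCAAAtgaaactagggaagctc
Espl1 (chr15:102296193-102296292, plus strand): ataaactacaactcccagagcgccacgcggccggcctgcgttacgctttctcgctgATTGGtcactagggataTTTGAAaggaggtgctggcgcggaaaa
In other members the CHR lay just after the RefSeq start, and the first 30 bases from that start are printed for 4 of them. They are also printed for Cenpa, the single member whose level did not pass the test between groups. The GENCODE M21 gene models used for gene coordinates below place some starts elsewhere, such as 69352938 for Cdk1, 61946774 for Kif23 and 30666777 for Cenpa.
Ccnb2 (chr9:70421525-70421554, minus strand): ggtaTTTGAAtcgcggaccgggcggtggac
Kif23 (chr9:61946770-61946799, minus strand): tgTTTGAAatgcgccgggcgggcgcacact
Racgap1 (chr15:99651627-99651656, minus strand): gtgatTTTGAAccggatctggcggcgcggt
Cenpf (chr1:189688057-189688086, minus strand): agTTTGAAtcgctcgtgctggtcggggagg
Cenpa (chr5:30666886-30666915, plus strand): gaggggcgggtgatttTTTGAActgctggc
Cdk1 held 2 CHR and 2 NF-Y boxes in the 100 bases shown, and Top2a held 1 CHR below 3 NF-Y boxes.

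Counted on both strands, the CHR was present in 37 of the 48 matched members (77.1%) and in 20.2% of all 27025 genes with a listed promoter. The NF-Y box was present in 75% of the matched members and 41.1% of all genes, and both motifs together in 64.6% and 7.97%. The gap was wider near the start, where 33 of 48 (68.8%) held a CHR that began within 50 bases of the start, against 5.72% of all genes. In the 50 bases after the start the CHR was found in 42.3% of the 52 member promoters (4 members have 2 starts) and in 2.25% of all promoters, whereas between 250 and 200 bases before the start the shares were 3.85% and 4.07%. If the 50 bases after the start are left out, the CHR was found in 41.7% of members and 18.3% of all genes. NF-Y boxes lay mostly before the start, in 48.1% of member promoters within the last 50 bases and in 42.3% in the 50 bases ahead of those. An E2F word (TTCCCGC or TTGGCGC) was present in 18.8% of members and 7.79% of all genes, and the T-box word AGGTGT in 4.17% (Ncapg and Ect2) and 15.7%. CHR and NF-Y words can share at most 1 end base, while TTGGCGC can overlap ATTGG. A match is a stretch of letters, not a measured binding site, and no binding data were analysed here.

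**Figure D1:**
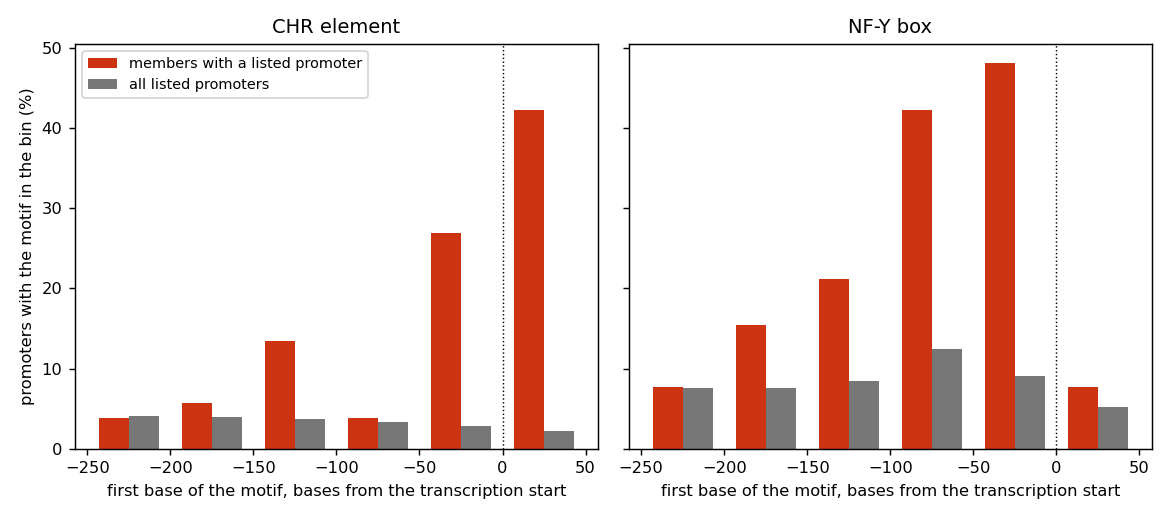
Share of promoters (%, vertical axis) whose CHR element (left) or NF-Y box (right) begins in each bin of 50 bases from the transcription start (horizontal axis, dotted line at the start), for 52 promoters of 48 members (red) and all 32851 listed promoters (grey). The CHR bars of the members peak in the 50 bases after the start (42.3% against 2.25%), and the NF-Y bars in the 50 bases before it (48.1% against 9.03%).

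Library totals lay between 5701670 and 7697556 reads counted to genes. The Tbx5 count was higher in the libraries labelled knockout (1952 ± 336, SD, n = 6) than in control (939 ± 125, SD, n = 4; log2 difference 1.03, adjusted p = 4.78e-05, edgeR quasi-likelihood). A gene-level count includes exons outside the deleted one and does not check the deletion, so every direction below rests on the labels. Nothing in the labels states that each library came from a separate mouse, and p-values measure the spread between these libraries. One library in each group stood apart for the members. Library M2 labelled knockout was the highest of its group for 58 of 59 members, at a median of 1.68 times the group median, and F3 was the lowest for 46, at a median of 0.657 times. Among controls, M2 was the highest for 46 members. With both M2 libraries left out, 58 members were still higher, with a median log2 difference of 3.23.

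Nearly the whole mitotic set was more abundant in the libraries labelled knockout. The members were chosen with earlier results of these data known, so the shares below describe the list and do not test it. Of the 59 members, 58 passed the test as higher (edgeR quasi-likelihood, Benjamini-Hochberg adjusted p of at most 0.05) and 0 as lower, where 20.8% of the 13191 tested genes passed as higher and 21.8% as lower. Every library labelled knockout lay above every control library for 57 members, against 16.3% of tested genes, and 55 members were higher by over 1 on the log2 scale, against 6.26%. Among the 14 members whose control counts alone would pass the filter on low counts, these counts were 13 and 10. The median log2 difference was 3.01 over the members and -0.00 over all tested genes, and the 58 called folds ran from 1.39 (Bub3) to 20.4 (Cdca5). Summed over the members, normalized counts ran from 1074 to 1786 in control and from 4086 to 10044 in the libraries labelled knockout, a ratio of means of 4.67. Folds and log2 differences of single genes come from the edgeR fit to the raw counts and can differ from the ratio of the printed mean normalized counts. In bulk tissue a change in the number of dividing cells and a change in RNA per cell cannot be told apart.

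Control counts of most members were very low. Only 14 members would have passed the filter on low counts from the control libraries alone. The other 45 entered the test through the libraries in which they were high. For those 45, being called, lying apart from control or differing by over 1 on the log2 scale carries no separate weight. The 14 were Ccna2, Incenp, Bub3, Mad2l1, Cenpa, Cenpf, Kif11, Kif20a, Aspm, Ncapd2, Smc2, Top2a, Mki67 and Prc1, of which 13 were higher, with a median log2 difference of 2.31. Ccna2, Incenp, Aspm and Prc1 were alone of their roles among the 14, and no gene of anaphase release was among them. The tallies and medians by role below include the other 45 as well. For 14 members the 4 control libraries together held 20 reads or fewer, down to 4 reads for Cdca5, and their folds are imprecise. The strand setting of the counting is not given, and 7 members share over 10% of their exon bases with a gene on the opposite strand: Kif20a with Cdc23 (29.3%), Ube2c with Tnnc2 (22.8%), Kif4 with Pdzd11 (15.1%), Ncapg with Lcorl (13.4%), Cdc25c with Gm3550 (12.7%), Ccna2 with Exosc9 (12.5%) and Prc1 with Rccd1 (11.1%). Without that setting, it is not known how reads in the shared stretches of these 7 were counted.

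**Figure D2:**
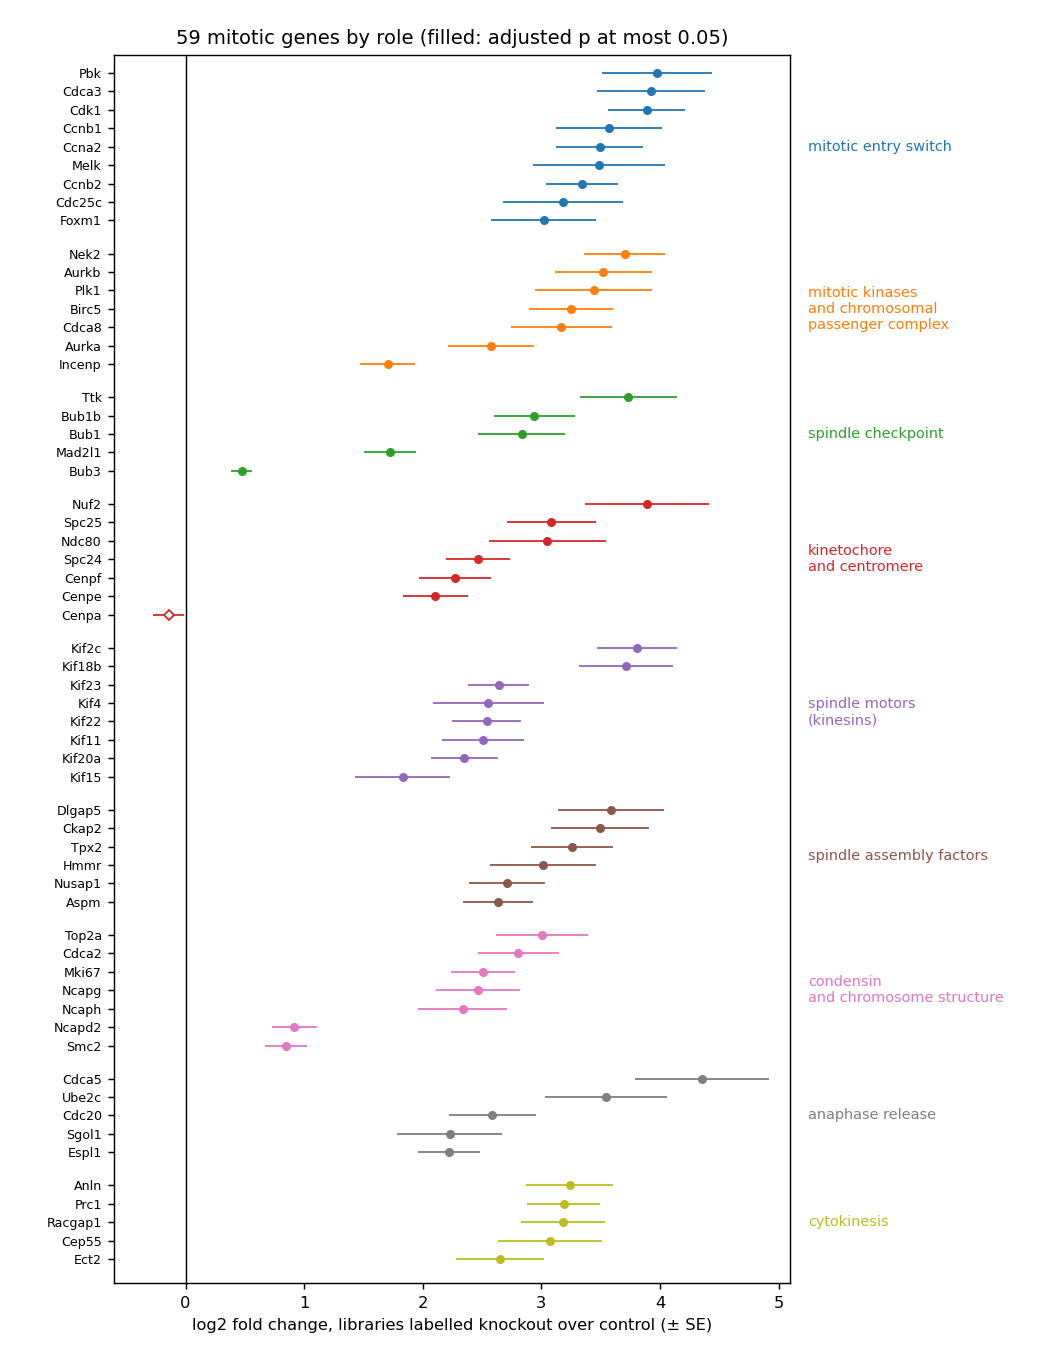
Log2 fold change of each of the 59 members, libraries labelled knockout over control (horizontal axis; points with SE bars), grouped by role and sorted within role. Filled points have an adjusted p of at most 0.05. The open diamond at -0.14 is Cenpa, and Bub3, Smc2 and Ncapd2 are the other members below 1.

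The mitotic entry switch had the highest median log2 difference of the 9 roles, 3.49, though only Ccna2 of this role would pass the filter in control alone. All 9 of its genes were higher, over a range of 3.02 to 3.98. Ccna2, the cyclin A that carries cells from S phase into mitosis (chr3:36564865-36572150, minus strand; gene coordinates are those of GENCODE M21 on GRCm38), had 22.5, 38.1, 11.6 and 14.6 normalized counts in control M1, M2, F1 and F2, and from 133 to 448 with a median of 242 in the libraries labelled knockout. The groups did not overlap, and control M2 was the highest control. Its log2 difference was 3.49 ± 0.37 (SE), adjusted p = 8.99e-06. Pbk, a kinase active in mitosis, showed the widest difference of the class. It had 1.18, 11.9, 2.31 and 3.14 normalized counts in the controls and ranged from 48.4 to 136 with a median of 78.8, a log2 difference of 3.98 ± 0.46 (SE) at adjusted p = 1.93e-05. Foxm1, the transcription factor that activates many of the other members, had the smallest difference of the class. Its controls stood at 5.91, 19.5, 2.31 and 7.32, the other libraries ran from 47.4 to 121 with a median of 67.6, and its log2 difference was 3.02 ± 0.44 (SE) at adjusted p = 0.000111. Neither gene showed any overlap between groups.

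Cdk1, the kinase that cyclins A and B turn on to start mitosis (chr10:69335146-69352938, minus strand), had a fitted fold of 14.8. Its means were 15.1 ± 7.11 (SD, n = 4) in control and 237 ± 89.9 normalized counts (SD, n = 6) in the libraries labelled knockout. Its promoter shown above holds 2 CHR elements. Among members with a matched promoter, the median log2 difference was 3.01 for the 37 with a CHR and 2.84 for the 11 without, a gap that was not tested. Of the 2 B-type cyclin partners of Cdk1, Ccnb1 was 11.9-fold and Ccnb2 10.1-fold higher. The controls held only 11 reads of Ccnb1 in all, and its log2 difference ran from 2.70 to 5.82 over the other settings and subsets of libraries, against 3.14 to 3.67 for Ccnb2. Levels of different genes are compared per kb of the union of all annotated exons, and such a comparison depends on which isoforms are expressed. On that scale Ccnb2 was the more abundant of the pair, at 6.52 to 69.9 normalized counts per kb from control to labelled knockout, against 0.630 to 8.38 for Ccnb1. Cdc25c, the phosphatase that removes the inhibitory phosphates from Cdk1, was 9.08-fold higher but stayed scarce, at 20.2 ± 9.69 normalized counts. The kinase gene Melk and Cdca3, a factor that promotes the breakdown of the Cdk1 inhibitor Wee1, were 11.2-fold and 15.2-fold higher.

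Mitotic kinases and the chromosomal passenger complex, which corrects faulty chromosome attachments and then directs cytokinesis, were higher in 7 of 7 genes, with a median log2 difference of 3.25. Incenp, the scaffold that holds the complex together (chr19:9872296-9899551, minus strand), moved least: the controls had 35.5, 34.7, 33.5 and 20.9 normalized counts, the other group ran from 74.2 to 160.4 with a median of 95.5, and the log2 difference was 1.70 ± 0.24 (SE) at adjusted p = 7.40e-05. Control F2 was low for this gene, and the groups did not overlap. Per kb of exon, Incenp went from 7.20 to 23.9, the kinase Aurkb from 1.76 to 21.8, the survivin gene Birc5 from 2.12 to 21.6, and the borealin gene Cdca8 from 0.752 to 7.07. In control Incenp was the most abundant of the 4 per kb, and in the libraries labelled knockout Incenp, Aurkb and Birc5 lay within 1 SD of each other, with Cdca8 lower.

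Nek2, a kinase that helps centrosomes part, had the largest difference of the class. Its controls held 7.10, 6.77, 3.47 and 4.18 normalized counts and the other libraries ran from 42.7 to 116 with a median of 74.0, with a log2 difference of 3.70 ± 0.34 (SE) at adjusted p = 3.32e-06. Again the groups did not overlap. Plk1, a kinase that acts at centrosomes, kinetochores and the midzone, was 10.9-fold higher, and Aurka, the kinase of the spindle poles, 5.96-fold.

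The spindle checkpoint, which delays anaphase until every kinetochore is attached, was higher in 5 of 5 genes but by very unequal amounts. Its median log2 difference was 2.84. Ttk, the kinase at the head of the checkpoint, went from 1.18, 5.08, 1.16 and 2.09 normalized counts in the controls to a range from 22.8 to 58.6 with a median of 33.5. The groups did not overlap, and its log2 difference was 3.73 ± 0.41 (SE) at adjusted p = 1.27e-05. Bub3, an adaptor protein needed in the checkpoint (chr7:131560222-131571895, plus strand), had 287, 279, 295 and 291 normalized counts in the controls, a small spread for its level. The libraries labelled knockout ran from 365 to 452 with a median of 408, all above the controls, with a log2 difference of only 0.47 ± 0.09 (SE) at adjusted p = 0.000592. In the male libraries alone this difference was 0.53 and did not pass (adjusted p = 0.0590, edgeR). Bub1 and Bub1b, a kinase and its relative that bind Bub3 at kinetochores, were 7.14-fold and 7.68-fold higher, and Mad2l1, whose protein blocks Cdc20, 3.30-fold. Per kb, Bub3 was the most abundant checkpoint gene in both groups (41.1 to 58.0), followed in the libraries labelled knockout by Bub1b (3.18 to 25.9).

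Kinetochore and centromere genes held the single exception. Of the 7, 6 were higher, and the median log2 difference was 2.46. Cenpa, the histone H3 variant that marks the centromere (chr5:30666777-30674830, plus strand), had 166, 144, 175 and 129 normalized counts in control M1, M2, F1 and F2 and from 124 to 185 with a median of 133 in the libraries labelled knockout. The groups overlapped broadly. Its log2 difference was -0.14 ± 0.13 (SE) at adjusted p = 0.403, from means of 153 ± 20.8 (SD, n = 4) and 141 ± 22.6 (SD, n = 6). Over 20 other settings and subsets of libraries the Cenpa difference ran from -0.26 to -0.00 and never passed. The Cenpa promoter holds a CHR at base 17 from the RefSeq start and NF-Y boxes that begin 109 and 86 bases before it. Many members that were higher hold both motifs too, and what sets Cenpa apart was not tested. Cenpa was already the most abundant kinetochore member per kb in control (26.1), where the next, Spc24, stood at 3.32.

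The 4 subunits of the Ndc80 complex, the rod that grips spindle microtubules, were all higher. Nuf2 had the largest difference of the class, with 4.73, 10.2, 1.16 and 1.05 normalized counts in the controls and values from 34.2 to 138 with a median of 61.8 in the other group. Its log2 difference was 3.89 ± 0.52 (SE) at adjusted p = 5.88e-05, without overlap, and M2 was the highest library in both groups. Ndc80 was 8.27-fold higher, Spc25 8.48-fold and Spc24 5.52-fold. In normalized counts per kb of exon the subunits went from 0.674 to 11.2 (Nuf2), 0.598 to 4.92 (Ndc80), 3.32 to 18.5 (Spc24) and 2.34 to 21.2 (Spc25). Cenpe, a kinetochore motor, and Cenpf, a large protein of the outer kinetochore, were 4.30-fold and 4.83-fold higher.

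**Figure D3:**
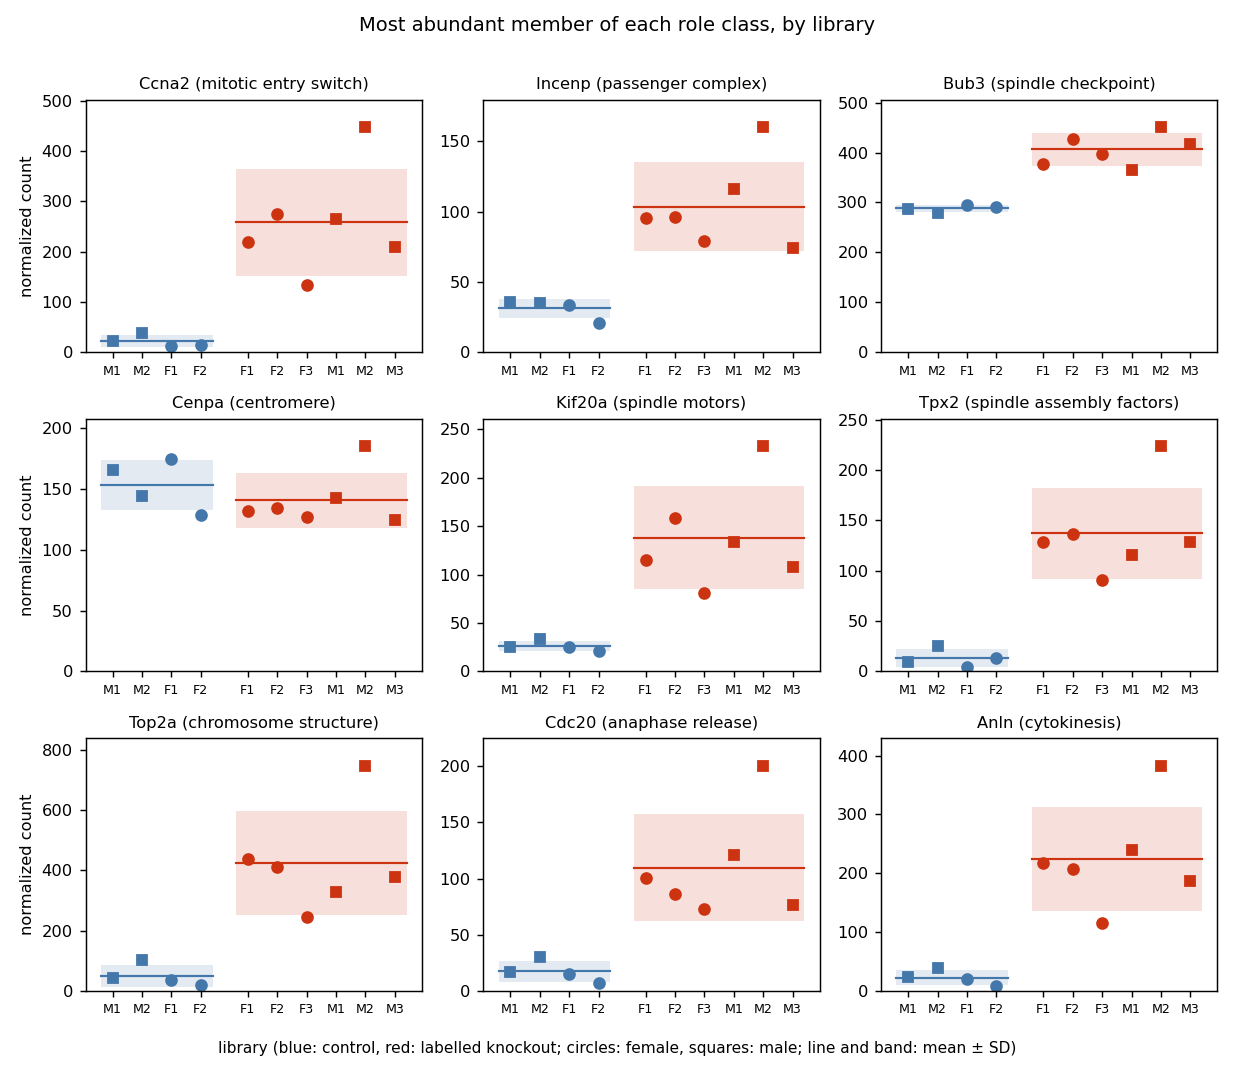
Normalized counts (vertical axis, each panel from 0) in each of the 10 libraries (horizontal axis) for the member of each role with the highest mean; blue is control, red is labelled knockout, circles are female, squares are male, and lines with bands give the mean ± SD. The groups are apart in every panel except that of Cenpa, and M2 is the highest red point in all 9 panels.

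Spindle motors of the kinesin family were higher in 8 of 8 genes, with a median log2 difference of 2.54. Kif20a, a kinesin of the central spindle, had the highest mean count of the class, at 24.8, 33.9, 25.4 and 20.9 in the controls and from 80.6 to 233 with a median of 124 in the other libraries. The Kif20a difference was 2.35 ± 0.28 (SE) on the log2 scale at adjusted p = 2.45e-05. Part of its exons is shared with Cdc23, which did not pass the test (306 ± 14.4 and 320.0 ± 27.6, SD, n = 4 and 6). That level does not show how many of the shared reads were counted to Kif20a, and levels of the other overlapping genes are not given here. Kif2c, which takes microtubules apart at centromeres, had the largest difference. It ran from 4.73, 5.93, 3.47 and 1.05 in the controls to values from 35.1 to 77.0 with a median of 58.3, a log2 difference of 3.81 ± 0.34 (SE) at adjusted p = 2.60e-06, without overlap. Kif15, a motor that helps keep the spindle bipolar, had the smallest. Its controls held 13.0, 14.4, 3.47 and 9.41 and the other libraries from 12.3 to 57.7 with a median of 39.3: F3 labelled knockout lay below 2 control libraries, and Kif15 and Cenpa were the members whose groups overlapped. The Kif15 difference was 1.83 ± 0.40 (SE) at adjusted p = 0.00229. Kif11, the main motor that pushes the spindle poles apart, was 5.69-fold higher. Kif18b, Kif22, Kif23 and Kif4 were 13.1-fold, 5.81-fold, 6.23-fold and 5.86-fold higher, respectively.

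Spindle assembly factors were higher in 6 of 6 genes, with a median log2 difference of 3.14. Tpx2, which activates Aurka on spindle microtubules, was the most abundant by mean count: 9.46, 25.4, 4.63 and 13.6 in the controls and from 91.1 to 224 with a median of 129 in the other group. The groups did not overlap, and the log2 difference was 3.26 ± 0.34 (SE) at adjusted p = 9.35e-06. Dlgap5, which stabilises the fibres that run to the kinetochores, had the largest difference. It had 5.91, 7.62, 1.16 and 1.05 normalized counts in the controls and ran from 37.3 to 95.3 with a median of 44.0, a log2 difference of 3.59 ± 0.45 (SE) at adjusted p = 3.26e-05. Aspm, a protein of the spindle poles known for its role in brain size, had the smallest, yet its groups were also apart. The controls had 17.7, 31.3, 19.7 and 11.5 and the other libraries from 81.6 to 206 with a median of 121, with a log2 difference of 2.63 ± 0.30 (SE) at adjusted p = 1.45e-05. Ckap2, Hmmr and Nusap1, which bind and bundle spindle microtubules, were 11.2-fold, 8.08-fold and 6.54-fold higher.

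Condensin and other proteins of mitotic chromosomes were higher in 7 of 7 genes, with a median log2 difference of 2.47. Top2a, the enzyme that untangles sister DNA (chr11:98992943-99024189, minus strand), had both the highest mean count and the largest difference of the class. The controls held 41.4, 102, 37.0 and 19.9 normalized counts, M2 being the highest, and the other libraries ran from 244 to 749 with a median of 395. No overlap was seen, and the log2 difference was 3.01 ± 0.39 (SE) at adjusted p = 4.34e-05. Mki67, the Ki-67 proliferation marker that coats mitotic chromosomes, had means of 60.0 ± 22.8 (SD, n = 4) and 351 ± 110.3 (SD, n = 6) and a fitted fold of 5.69. Subunits of the condensin I complex differed among themselves: Ncapg and Ncaph were 5.54-fold and 5.05-fold higher, Ncapd2 only 1.89-fold. Smc2, the ATPase shared by condensin I and II, had the smallest difference, from 78.0, 80.4, 89.1 and 79.5 in the controls to values from 103 to 219 with a median of 141, a log2 difference of 0.85 ± 0.17 (SE) at adjusted p = 0.00147. All libraries labelled knockout were above the controls for Smc2. On the per kb scale, Ncapd2 and Smc2 were the most abundant condensin members in control (22.7 and 14.9), against 4.01 for Ncaph and 1.29 for Ncapg. In male libraries alone the Ncapd2 difference was 0.89 and did not pass (adjusted p = 0.0550, edgeR). Cdca2, which recruits a phosphatase to chromatin at mitotic exit, was higher by 2.81 on the log2 scale.

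Genes of anaphase release were higher in 5 of 5, with a median log2 difference of 2.59, and none of the 5 would pass the filter in control alone. Cdc20, the activator that turns on the anaphase-promoting complex, had 16.6, 30.5, 15.0 and 7.32 normalized counts in the controls and ran from 73.0 to 201 with a median of 93.4 in the other group, without overlap. That is a log2 difference of 2.59 ± 0.37 (SE) at adjusted p = 9.18e-05. Cdca5, sororin, which guards sister cohesion until anaphase, had the largest fitted difference of all members. Its controls held 1.18, 2.54, 0 and 0 normalized counts, from 1, 3, 0 and 0 reads, and the other libraries from 15.3 to 41.2 with a median of 21.1. The log2 difference was 4.35 ± 0.57 (SE) at adjusted p = 4.45e-05, and it ran from 3.66 to 7.46 over the other settings and subsets, so its size is poorly fixed while its direction was the same in each. Espl1, separase, the protease that cuts cohesin, had the smallest difference of the class. Its controls held 14.2, 24.6, 8.10 and 17.8 and the other libraries from 53.5 to 105 with a median of 76.5, a log2 difference of 2.22 ± 0.26 (SE) at adjusted p = 2.13e-05. Ube2c, the ubiquitin-conjugating enzyme of the anaphase-promoting complex, and Sgol1, shugoshin, which shields centromeric cohesin, were 11.7-fold and 4.68-fold higher.

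Cytokinesis genes were higher in 5 of 5, within a narrow band of log2 differences from 2.65 to 3.24. Anln, anillin, the scaffold of the contractile ring, had 23.7, 38.9, 19.7 and 8.37 normalized counts in the controls and values from 115 to 383 with a median of 212 in the libraries labelled knockout. Control F2 was the lowest and control M2 the highest, and the groups were apart. The Anln difference was 3.24 ± 0.37 (SE) on the log2 scale at adjusted p = 1.56e-05. Ect2, the exchange factor that switches on RhoA at the cell equator, had the smallest difference. The controls had 13.0, 28.8, 16.2 and 6.28 and the other group from 57.9 to 181 with a median of 106, with a log2 difference of 2.65 ± 0.37 (SE) at adjusted p = 7.95e-05. Racgap1 and Kif23, partners in the centralspindlin complex that recruits Ect2, were 9.07-fold and 6.23-fold higher. Prc1, which bundles midzone microtubules, and Cep55, which acts in the final cut, were 9.12-fold and 8.41-fold higher.

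Other machinery of chromosome segregation did not move as one with the members, and the counts that follow come from lists put together by known function. Each is to be read against the 20.8% of all tested genes that were higher and the 21.8% that were lower. As with the members, genes of these lists and of those in the paragraphs that follow may have passed the filter only through the libraries in which they were high. The counts therefore describe the lists and do not test them. Of 22 other kinetochore and centromere genes tested, 14 were higher and 1 lower, with a median log2 difference of 1.01 (13 higher and 1 lower without both M2 libraries). Casc5 (Knl1), which docks the checkpoint proteins, was 5.06-fold higher (adjusted p = 1.78e-05, edgeR), Zwilch 6.03-fold (adjusted p = 6.48e-05) and Kntc1 9.23-fold (adjusted p = 0.000101). The anaphase-promoting complex that Cdc20 and Ube2c serve had 0 of 13 genes higher and 2 lower, Cdc27 (-0.35 on the log2 scale, adjusted p = 0.0149) and Anapc1 (-0.24, adjusted p = 0.025). The 2 of 13 are a smaller share than that over all tested genes, and without both M2 libraries 1 of the 13 was lower. Cohesin, the ring that separase opens, and its loaders and releasers had 0 of 10 higher and 8 lower, with a median of -0.71. Nipbl, the cohesin loader, was 2.24-fold lower (adjusted p = 3.30e-06), Smc3 2.31-fold (adjusted p = 4.38e-05) and Stag2 1.85-fold (adjusted p = 6.10e-05). Cohesin also acts outside mitosis, in genome folding. Among 4 other condensin subunits, Ncapg2 (1.44 on the log2 scale, adjusted p = 0.000503) and Ncaph2 (0.32, adjusted p = 0.00508) were higher, and Ncapd3 (-0.59, adjusted p = 0.000355) was lower.

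The step before mitosis moved in the same direction. Of 28 genes of S phase, 25 were higher and 0 lower, with a median log2 difference of 1.24, and the same counts held without both M2 libraries. Uhrf1, which carries DNA methylation through replication, was 9.30-fold higher (adjusted p = 1.17e-05, edgeR), Mcm5, a subunit of the replicative helicase, 4.65-fold (adjusted p = 2.74e-05), and Rrm2, a subunit of the enzyme that makes deoxynucleotides, 4.52-fold (adjusted p = 4.99e-05). Of 19 regulators of the DREAM, MuvB, RB and E2F families, 9 were higher and 3 lower, with a median of 0.22. E2f1 was 4.29-fold higher (adjusted p = 0.000333) and Mybl2, which encodes B-MYB, 6.70-fold (adjusted p = 0.000482), while Tfdp2, an E2F partner, was 1.67-fold lower (adjusted p = 0.000505). Without both M2 libraries, 7 were higher and 2 lower. Among 9 genes that restrain the cycle, 4 were higher and 2 lower. Wee1, the kinase that holds Cdk1 inactive, was 2.21-fold higher (adjusted p = 0.00136), Fbxo5, an inhibitor of the anaphase-promoting complex, 2.50-fold (adjusted p = 0.00202), and Btg2, an antiproliferative gene, 3.84-fold (adjusted p = 0.00259).

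Markers of macrophages and fibroblasts were higher along with the members, and their part in the result was not tested. All 11 macrophage markers were higher, with summed normalized counts of 4118 to 5698 in control and 9075 to 13508 in the libraries labelled knockout; C1qb was 2.50-fold higher. Of 8 fibroblast markers, 6 were higher and 1 lower, with sums of 20178 to 22219 and 37451 to 52303; Col1a2 was 3.21-fold higher. M2 labelled knockout had the highest macrophage and fibroblast sums as well as the highest sum over the members, and the lowest cardiomyocyte sum. F2 came next in both the fibroblast sum (48531) and the sum over the members (6381). The order was not kept elsewhere in this group. F3 had the lowest sum over the members (4086) and the next highest macrophage sum (10100). F1 had the lowest macrophage and fibroblast sums, with 5808 over the members. The cardiomyocyte sum of M1 (412938) was close to that of M2 (409266). Of 7 smooth muscle and pericyte markers 4 were higher and 0 lower, and of 7 endothelial markers 3 were higher and 2 lower, with endothelial sums of 7514 to 8635 and 8296 to 9039. Lymphocyte markers were near 0: none of 8 passed the filter, and their sums were 15.0 to 24.6 in control and 8.30 to 16.1 in the other group. Granulocyte sums were 2.31 to 17.8 and 12.4 to 32.1, and erythroid precursor sums 77.4 to 173 and 61.2 to 282. None of 5 epicardial markers passed in either direction, and of 2 tested Schwann cell markers 1 was lower. Cardiomyocyte markers summed to 788280 to 1006395 in control and to 409266 to 565893 in the libraries labelled knockout, with 3 of 10 higher and 5 lower. Atrial and ventricular genes were also read, without a verdict on the labelled tissue. Myl7, the atrial light chain, stood at 61119 ± 9804 in control and 3793 ± 1010.5 in the other group, the ventricular Myl2 at 3.25 ± 2.28 and 87.6 ± 49.1, and the ventricular factor Irx4 at 0 in all 10 libraries. Myl7 does not stand for the cardiomyocyte list it belongs to, whose log2 differences ran from -4.03 to 0.63 with a median of -0.37. Of 3 tested ventricular markers 2 were higher, over a range of 0.67 to 4.64. The ventricular sums were 821 to 1515 in control and 5174 to 9320 in the libraries labelled knockout. Most of these sums came from markers other than Myl2 and Irx4. Without both M2 libraries the macrophage, fibroblast and smooth muscle counts were the same, while 2 endothelial markers were higher and 1 lower, 2 cardiomyocyte markers higher and 4 lower, and 1 epicardial marker higher.

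**Figure D4:**
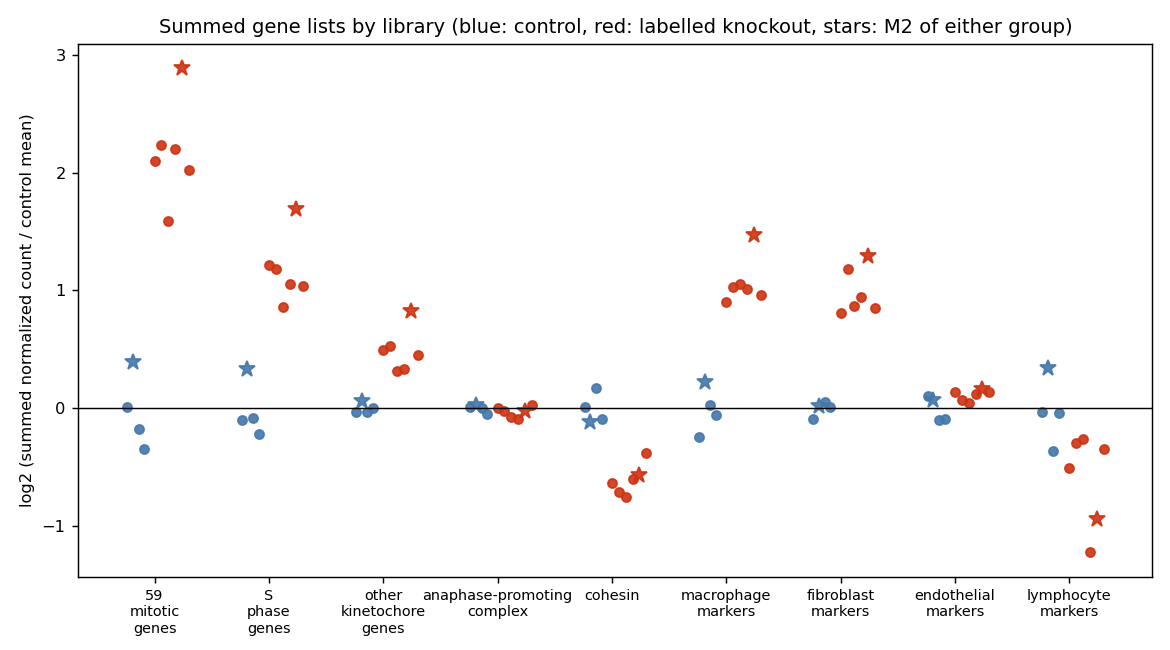
Log2 ratio of each library's summed normalized count to the control mean (vertical axis) for the 59 mitotic genes and 8 other lists (horizontal axis); blue is control, red is labelled knockout, and stars mark M2 of either group. The mitotic sums of the red group are all above control and highest in M2, as are those of the macrophage and fibroblast markers, whereas cohesin sums are all below and sums of the anaphase-promoting complex overlap.

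Both sexes showed the difference. The effect within females and within males came from 1 fit with a sex by genotype term over 2 control and 3 knockout libraries of each sex. In this fit 57 members were called higher in females, where 13.5% of all tested genes were, and 58 in males, against 12.8%. Cenpa was called in neither, and Smc2 did not pass in females (0.58, adjusted p = 0.0692, edgeR). Bub3 (0.52 in males, adjusted p = 0.0129) and Ncapd2 (0.87, adjusted p = 0.0214) passed here and did not in the fit of male libraries alone. The median log2 difference was 3.30 in females and 2.73 in males, and it was larger in females for 47 members and in males for 12. The interaction was called for 0 of 59 members, where 0.205% of all tested genes were called (edgeR quasi-likelihood, adjusted p of at most 0.05). At an unadjusted p under 0.05 there were 2 members, and DESeq2 called 0 and had 3. Those 2 were Ccnb1, with 5.81 in females and 2.68 in males (unadjusted p = 0.0134, adjusted p = 0.490, edgeR), and Ube2c, with 6.04 and 2.87 (unadjusted p = 0.0343, adjusted p = 0.640, edgeR). Both had 0 reads in 1 female control and M2 as the highest control. Without control M2 the difference was larger in males for 26 members rather than 12, and without knockout M2, 14 members had an unadjusted p under 0.05 with 0 called. Among the members that went against the majority, Cdca8 (2.37 in females and 4.08 in males) and Ndc80 (2.14 and 3.97) had the widest gaps.

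**Figure D5:**
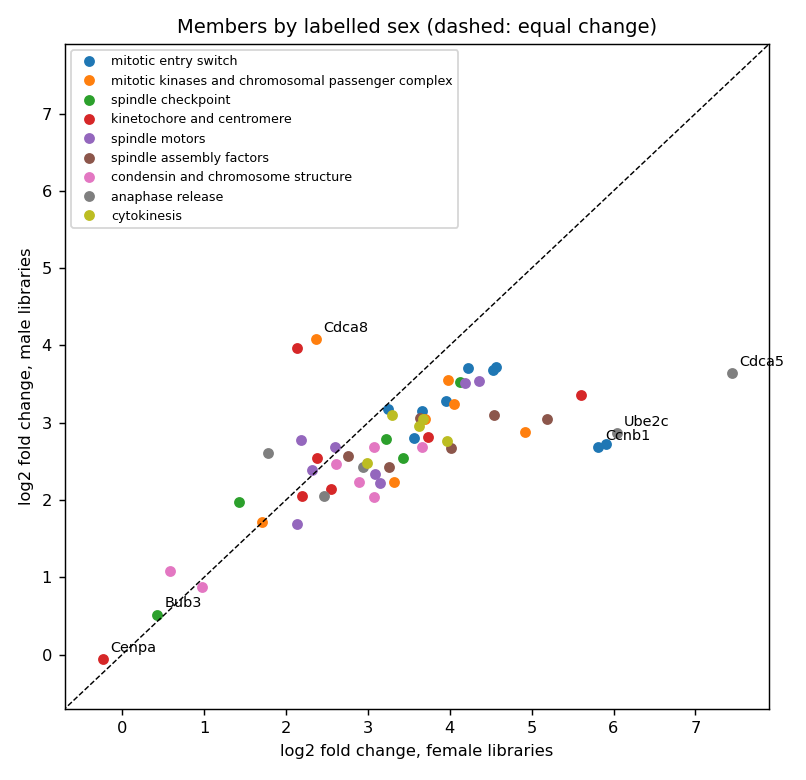
Log2 fold change of each member in male libraries (vertical axis) against female libraries (horizontal axis), coloured by role, with a dashed line of equal change. Most points lie below the line (47 of 59), and the members farthest to the right, such as Cdca5, Ube2c and Ccnb1, had control counts near 0 in females.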

How the data were processed

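Bulk RNA-seq of left atrium in 4 control and 6 Tbx5 knockout libraries was analysed from 1 deposited table. The submitters' processing notes name FastQC, TopHat2 2.0.11, featureCounts, DESeq2 and build mm10; no role for each and no strand setting stand in the labels. The labels describe 51 bp single reads and, at different places, a poly(A) kit and ribosomal RNA removal. The table holds whole-number counts per gene, deposited by the authors. It also holds the authors' normalized counts, a signal that is the count divided by a library size factor, and, per the file headers, the authors' own log2 fold change with its standard error, Wald score, p-value, adjusted p-value and fold ratio, which were not used for any call here.

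Samples were grouped by their titles. Counts were tested with edgeR 4.0.16 (R 4.3.3): filterByExpr (minimum count 10), TMM scaling, glmQLFit and glmQLFTest, control against knockout with no covariate, p-values adjusted by Benjamini-Hochberg over 13191 tested genes. Of 23337 genes, 4773 had no read. Standard errors of log2 differences were derived from the F statistic. Printed levels are normalized counts; levels per kb divide them by the union exon length of the GENCODE M21 gene model. Alternatives were DESeq2 1.42.0, other scalings, other filters, sex or a replicate block as covariate, each sex alone and leaving out each library; leaving out both M2 libraries was chosen after seeing the data. The fits were tested on simulated counts first.

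Members and lists were chosen with earlier results of these data known. Library by library values are given for the member of each role with the highest mean normalized count, the largest and the smallest log2 difference, and any member that did not pass; from other lists, up to 3 genes with the smallest adjusted p. Promoters are RefSeq sequences of GRCm38.p6; gene coordinates are GENCODE M21 on GRCm38. Within groups, library pairs correlated at 0.964 to 0.986, and none agreed within sampling noise. Members without a matched promoter were Ccna2, Cdc25c, Foxm1, Pbk, Aurkb, Incenp, Spc24, Kif20a, Tpx2, Dlgap5 and Cdca2.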

Additional observations from a re-analysis of the deposited data

Results flagged for a closer look

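Of 118 groups of 4 or 6 libraries (59 members in each group), 11 had a library set off from the rest by more than Dixon's 95% critical value. Chance flags about 1 in 20 independent groups. The members share the same 10 libraries, so the groups are not independent and the count cannot be set against that rate. In 9 of the 11 the library was M2 labelled knockout, as the highest of its group. For the entry genes Cdk1 and Cdca3 it had 412 and 206 normalized counts, where the next library had 232 and 96.8. For the passenger complex genes Birc5 and Cdca8 it had 125 and 68.7, next to 72.6 and 38.1. The centromere gene Cenpa, which did not differ between groups by the test, stood at 185 in this library and at 142 in the next. Among spindle assembly factors, Tpx2 had 224, Ckap2 223 and Dlgap5 95.3, next to 137, 127 and 48.5. The condensin gene Ncapg had 95.3, next to 55.8. The remaining 2 were controls: Incenp was low in control F2 at 20.9, where the next had 33.5, and the kinesin Kif4 was high in control M2 at 20.3, where the next had 5.78.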

How the results depend on the processing

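The count of members higher stayed at 58 of 59 under DESeq2, other size factors, library size alone, no filter, sex as a covariate, female libraries alone and each library left out, with medians of 2.77 to 3.42 over the left-out libraries. With at least 50 counts asked for in 4 libraries, 43 members were tested and 42 were higher. Male libraries alone gave 56, without Bub3 (0.53, adjusted p = 0.0590, edgeR) and Ncapd2 (0.89, adjusted p = 0.0550, edgeR). Of 1164 pairs of a member and a setting, 1162 kept their direction and side of the threshold. These pairs are not independent, since the settings reuse the same 10 libraries and the members move together. They also include the 45 members that entered the test only through the libraries in which they were high. Scaling by library size alone moved the median of all tested genes to 0.14 and their split to 3942 higher and 2020 lower, from 2741 and 2881. The share of members with a CHR fell to 41.7% when only the 250 bases before the start were read, by construction of the shorter window. Replicate numbers did not pair the libraries: same-numbered libraries correlated at -0.13 to 0.17, and 1 of 4 controls correlated best with its own number. A fit with a replicate block gave 58 higher and a median of 3.21. The interaction with sex was called for 0 members in each fit run. Depth limits the members with 20 control reads or fewer, whose folds are imprecise.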

Other observations

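Pttg1, securin, the protein that keeps separase inactive until anaphase, is not among the 59 genes and was singled out after its values were seen. It went against its partner Espl1. The controls had 527, 500.4, 504 and 574 normalized counts, and the libraries labelled knockout 262, 83.7, 78.7, 383, 99.0 and 253 in F1, F2, F3, M1, M2 and M3. Every library labelled knockout was below every control, with F2, F3 and M2 far below F1, M1 and M3. Both genotypes are labelled as a mixed background, and the source of this spread was not tested. The log2 difference was -1.47 ± 0.36 (SE) at adjusted p = 0.00504 (edgeR quasi-likelihood). Btg2, an antiproliferative gene, also varied widely within the group: 1014, 1726, 2578, 388, 705 and 703 in the same order, against 269.6, 257, 376 and 317 in the controls.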
